A study of Homo sapiens with 8 samples.

Results

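The Siglec, leukocyte immunoglobulin-like receptor (LILR) and C-type lectin receptor genes were followed in Molm13 and THP1 cells with and without knockdown (KD) of PRMT9, a protein arginine methyltransferase. Genes were taken by symbol from the Molm13 count table: SIGLEC, LILRA, LILRB or CLEC with a number, together with CD33, OSCAR, TREM1, TREM2, LAIR1, SIRPA, PILRA, PILRB and LRRC25. This gave 61 genes of the 57722 present in both tables. The rule uses symbols only and no measured value. SIGLEC16 is annotated as a pseudogene in GENCODE release 29, and the other 60 are annotated as protein coding.

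These receptors sit on the surface of monocytes, macrophages and their leukemic counterparts. Siglecs read sialic acids on neighboring cells, and most carry an inhibitory motif (ITIM) that recruits the phosphatases SHP-1 and SHP-2. LILRB receptors, LAIR1, SIRPA and PILRA work in the same way with protein ligands such as MHC class I, collagen and CD47. LILRA receptors, TREM1, TREM2, OSCAR, CLEC5A and SIGLEC14 have no inhibitory motif and signal through the ITAM-bearing adaptors DAP12 or Fc receptor gamma. CD33, CLEC12A and LILRB4 are known as surface antigens of acute myeloid leukemia (AML).

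Molm13 and THP1 are human AML cell lines of monocytic type. Cells of each line received doxycycline (Dox) to induce a control shRNA (shCtrl, labelled wild type) or an shRNA against PRMT9 (shPRMT9, labelled PRMT9 knockdown), and polyA RNA was sequenced. There were 4 groups of 2 libraries (8 libraries), with 18720950 to 27356870 counts per library. Nothing in the labels says that the libraries of a group came from separate cultures, so P values measure only the spread between these libraries, which may be technical. It is also not stated whether the numbers 1 and 2 of shPRMT9 are replicates or separate hairpins. OCI, letters used in the names of other leukemia lines, appears in the titles of the THP1 libraries.

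PRMT9, the shRNA target (chr4:147637785-147684230, hg38), had 332 and 289 counts in Molm13 with shCtrl and 41 and 56 with shPRMT9. In THP1 it had 317 and 352 counts with shCtrl and 60 and 68 with shPRMT9. It fell by 2.68 ± 0.135 (SE) on the log2 scale in Molm13 and by 2.29 ± 0.131 in THP1, so the target followed the labels in all 8 libraries.

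Many of the receptor genes were barely transcribed. Of the 61, 14 had at most 3 counts in every library, and CLEC4F, a receptor of liver macrophages, had 0 counts in all 8. A filter on low counts kept 26 of the genes in Molm13 and 32 in THP1. 24 were kept in both lines and 27 in neither. The filter needs enough counts in the libraries of only 1 group. CLEC2B, LILRA5, SIGLEC1 and SIGLEC15 passed it in Molm13, and CLEC10A, CLEC4M and SIGLEC15 in THP1, through the shPRMT9 libraries alone, so these genes were bound to lie higher with shPRMT9 and counts over the tested genes are given as a description. All 5 genes of the dectin-2 cluster on chromosome 12 (CLEC4A, CLEC4C, CLEC4D, CLEC4E and CLEC6A) stayed below the filter in both lines. They had at most 17 counts in any library.

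Among the expressed receptors a few dominated in both lines. Levels between genes were compared as RPKM, that is scaled by exon length and library size. CLEC11A, a secreted growth factor of blood progenitors rather than a membrane receptor, was highest, with a mean of 153 RPKM in Molm13 shCtrl and 307 in THP1 shCtrl. Next came LAIR1, the collagen receptor, with 47.2 and 21.9 RPKM, and SIRPA, the CD47 receptor, with 39.3 and 17.1. LILRB4 had 13.8 RPKM in Molm13 and 27.4 in THP1, and CD33 had 10 and 11.3. TREM2, a lipid-binding receptor of macrophages and microglia, ranked among the 5 highest in THP1 alone, with 19.8 RPKM against 1.07 in Molm13. These 5 genes of Molm13 (CLEC11A, LAIR1, SIRPA, LILRB4 and CD33) took 88.4% and 88% of all receptor reads in the Molm13 shCtrl libraries and 82.7% and 82.3% in those of THP1.

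The lines differed in these receptors before PRMT9 KD. In a fit of all 8 libraries, 23 of the 36 genes tested differed between THP1 shCtrl and Molm13 shCtrl at a false discovery rate (FDR, from the quasi-likelihood test of edgeR, adjusted by Benjamini-Hochberg) below 0.05 and more than 1.5-fold, against 59.5% of all 19288 genes tested. 15 were higher in THP1 (28.4% of all genes) and 8 in Molm13 (31.1%). CLEC12B, CLEC4M, CLEC5A, CLEC7A, LILRB5, SIGLEC11, SIGLEC12 and TREM1 are among the 15. They passed the filter on low counts through THP1 libraries alone, so they were bound to lie higher in THP1. The counts by direction, here and at the FDR alone, are therefore a description. At the FDR alone, 28 differed (82.8%), 20 higher in THP1 (40.1%) and 8 higher in Molm13 (42.7%). The shares that differed, 63.9% and 77.8% of the receptors tested, lie near the background. The lines come in separate tables, so line and handling cannot be told apart.

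Toward THP1, SIGLEC1, the sialic acid receptor of tissue macrophages, had 3 and 8 counts in Molm13 shCtrl and 616 and 610 in THP1 shCtrl, a log2 difference of 6.36 ± 0.198. TREM2 differed by 4.20 ± 0.147, from 27 and 20 counts to 570 and 589. CLEC12A, an inhibitory lectin of myeloid blasts, had 45 and 57 counts in Molm13 and 331 and 382 in THP1 (2.39 ± 0.14). CLEC5A had 1 and 0 counts in Molm13 and 44 and 62 in THP1. SIGLEC11 had 0 counts in both Molm13 shCtrl libraries and 20 and 19 in THP1, at least 4.89-fold higher when set against 3 counts per library. Toward Molm13, LRRC25, a leucine-rich membrane protein of myeloid cells, was 6.07-fold higher (121 and 117 counts against 26 and 26) and CLEC10A, a galactose-type lectin of macrophages and dendritic cells, 3.86-fold higher (26 and 21 against 4 and 12). CLEC2D, the ligand of the NK-cell receptor CD161, was 3.22-fold and OSCAR 2.38-fold higher in Molm13. CD33 differed by only 0.18 ± 0.0475 on the log2 scale, the smallest such difference that still passed an FDR below 0.05 (3.7e-04).

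**Figure D1:**
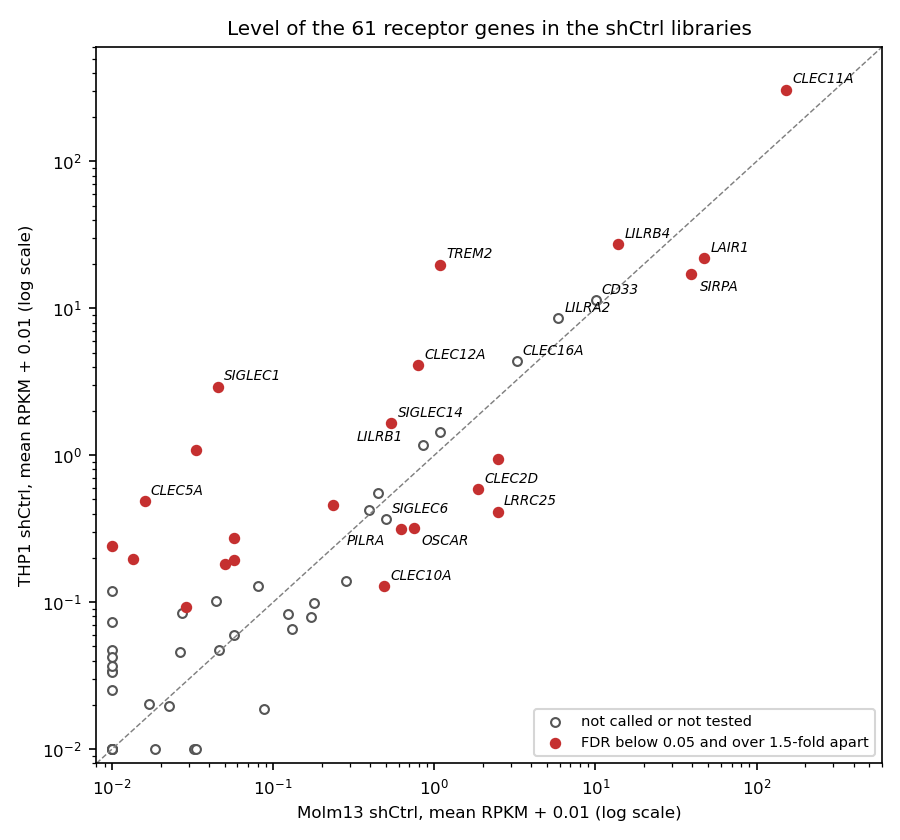
Mean RPKM plus 0.01 of each of the 61 genes in the 2 Molm13 shCtrl libraries (horizontal axis) and the 2 THP1 shCtrl libraries (vertical axis), both on log scales, with the line of equal level dashed. Filled points are the 23 genes that differed at FDR below 0.05 and more than 1.5-fold; SIGLEC1 and TREM2 lie far above the line, and LRRC25 and CLEC10A below it.

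More of these receptors rose than fell with shPRMT9, in both lines. A gene was called differentially expressed (DEG) if its FDR was below 0.05, it changed more than 1.5-fold and at least 1 library had an RPKM above 1. In Molm13, 12 of the 26 tested genes were DEGs, against 22.8% of all 16446 genes tested. 11 rose (11.4% of all genes), and CLEC16A alone fell (11.3%). With the FDR alone, 25 passed (66.9% of all genes), of which 22 rose (33.4%) and 3 fell (33.5%). In THP1, 5 of the 32 tested genes were DEGs, against 6.22% of all 16294 genes. All 5 rose (3.83% of all genes) and 0 fell (2.39%). With the FDR alone, 17 passed (37.6% of all genes), of which 14 rose (19%) and 3 fell (18.6%). The same number, 3, was lower at an unadjusted P below 0.05, and by the DEG rule 0 fell with DESeq2 or limma voom as well. DESeq2 did not call PILRA, TREM2, CLEC12A and LILRA2 in Molm13. The median log2 fold change over the tested receptors was 0.75 in Molm13 and 0.37 in THP1, whereas the medians over all tested genes were 4.7e-04 and -6.3e-04.

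The shCtrl and shPRMT9 libraries did not overlap in CPM (counts scaled to the library size) for 25 of the 26 genes in Molm13 and 26 of the 32 in THP1, against 81.9% and 66% of all tested genes. All receptor reads together made up 0.108% and 0.107% of the counts in Molm13 with shCtrl and 0.142% and 0.14% with shPRMT9, and in THP1 0.119% and 0.115% with shCtrl and 0.138% and 0.143% with shPRMT9. Most of the change in THP1 was SIGLEC1: without it, a choice made after seeing the data, the shares there were 0.116% and 0.112% with shCtrl and 0.117% and 0.12% with shPRMT9, whereas those in Molm13 were 0.108% and 0.107% against 0.142% and 0.14%. In bulk RNA, more cells of a kind and more RNA per cell cannot be told apart.

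**Figure D2:**
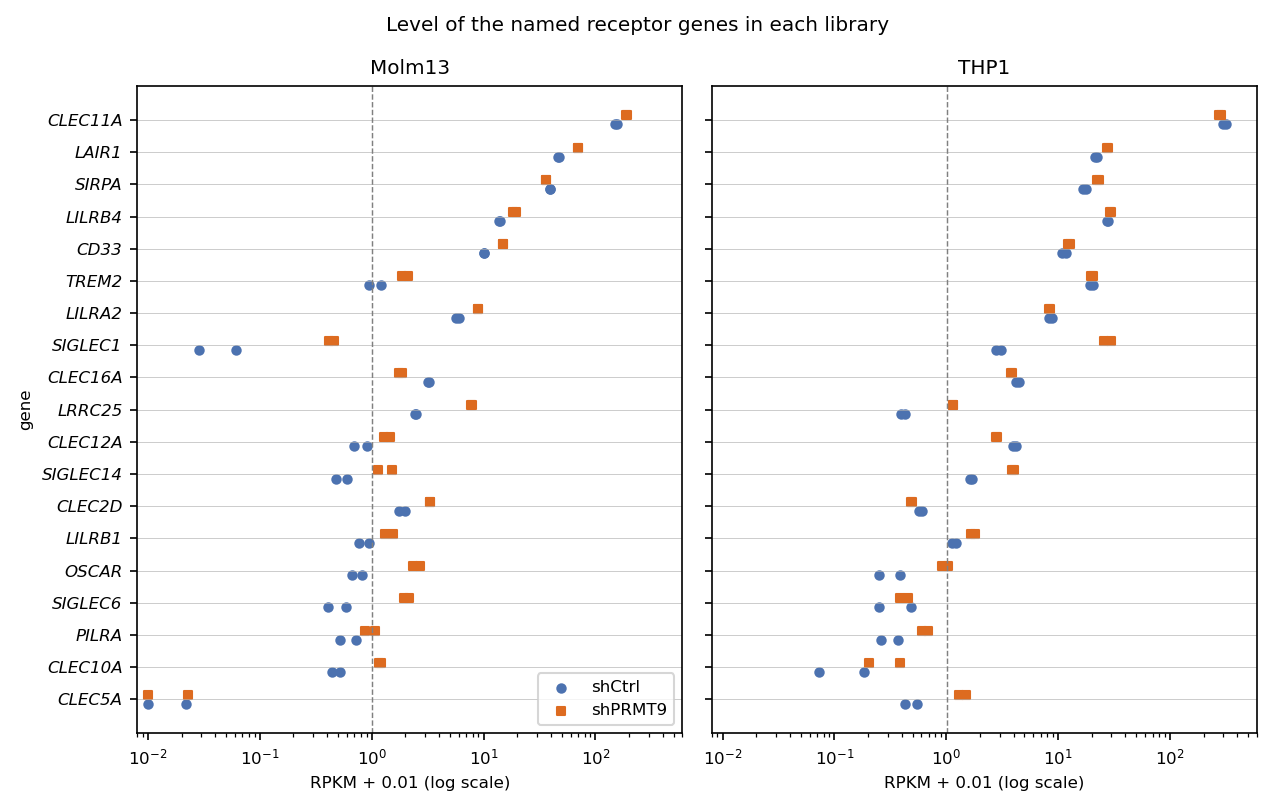
RPKM plus 0.01 (log scale) of the 19 named receptor genes in every library of Molm13 (left) and THP1 (right); circles are shCtrl and squares shPRMT9 libraries, and the dashed line marks an RPKM of 1. In Molm13 the shPRMT9 points lie to the right of the shCtrl points for every named gene except CLEC16A, SIRPA and CLEC5A, whereas in THP1 SIGLEC1, LRRC25, SIGLEC14, OSCAR and CLEC5A are among those shifted to the right.

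LRRC25, OSCAR and SIGLEC14 were DEGs in both lines and rose in each. LRRC25 (chr19:18391144-18397617) had 121 and 117 counts in Molm13 shCtrl and 357 and 398 in shPRMT9, and 26 and 26 in THP1 shCtrl and 69 and 68 in shPRMT9. Replicates were close and the groups were well apart in both lines. The log2 fold change was 1.66 ± 0.101 in Molm13 (FDR 8.3e-19) and 1.49 ± 0.243 in THP1 (FDR 1.4e-05).

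OSCAR (chr19:54094668-54102692), a collagen-binding receptor first described in osteoclasts, rose from 28 and 33 counts to 106 and 103 in Molm13 and from 20 and 14 to 48 and 53 in THP1. Its log2 fold change was 1.77 ± 0.203 (FDR 2.2e-10) and 1.66 ± 0.301 (FDR 5.8e-05). The rise in THP1 was alike in both shPRMT9 libraries, but OSCAR was no DEG there without shPRMT9 replicate 2, since only that library passed the RPKM minimum (1.02 against 0.915 in replicate 1). SIGLEC14 (chr19:51642553-51646801), the activating partner of SIGLEC5, rose from 20 and 24 counts to 44 and 67 in Molm13 (1.33 ± 0.261, FDR 2.0e-05) and from 90 and 93 to 211 and 198 in THP1 (1.25 ± 0.135, FDR 1.5e-08). 33.1% of the 50-base words of SIGLEC14 transcripts recur in another gene, SIGLEC5 foremost, and the SIGLEC5 and SIGLEC14 genes overlap on the same strand. SIGLEC5 itself had 0 counts in all libraries except THP1 shPRMT9 replicate 1, which had 2, so how reads of the pair were divided between them is uncertain.

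Promoters are shown for 4 receptors that rose: LRRC25 and SIGLEC14, DEGs in both lines, SIGLEC6, which rose in Molm13, and TREM1, which rose in THP1. The sequences are from RefSeq on GRCh38.p14, run from 250 bases before to 50 bases after the start of the gene and are written 5′ to 3′ on its strand, the minus strand for all 4. 43 of the 61 receptors had an entry in the promoter table, and OSCAR, SIGLEC1, PILRA and SIRPA are among those without. Capitals mark matches to the gamma-activated site TTCNNNGAA, a motif bound by STAT factors. The windows are chr19:18397573-18397872 for LRRC25, chr19:51646776-51647075 for SIGLEC14, chr19:51531621-51531920 for SIGLEC6 and chr6:41286633-41286932 for TREM1.
LRRC25: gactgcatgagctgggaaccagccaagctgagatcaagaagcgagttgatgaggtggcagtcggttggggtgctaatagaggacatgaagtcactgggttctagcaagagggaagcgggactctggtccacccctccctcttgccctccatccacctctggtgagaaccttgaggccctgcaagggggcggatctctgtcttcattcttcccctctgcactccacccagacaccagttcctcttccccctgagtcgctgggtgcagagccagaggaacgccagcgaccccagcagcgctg
SIGLEC14: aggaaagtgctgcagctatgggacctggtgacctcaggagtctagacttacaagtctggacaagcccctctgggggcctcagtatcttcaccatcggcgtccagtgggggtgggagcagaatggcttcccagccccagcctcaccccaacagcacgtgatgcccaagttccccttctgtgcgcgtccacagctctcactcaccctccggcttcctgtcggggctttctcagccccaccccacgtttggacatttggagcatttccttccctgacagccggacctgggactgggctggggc
SIGLEC6: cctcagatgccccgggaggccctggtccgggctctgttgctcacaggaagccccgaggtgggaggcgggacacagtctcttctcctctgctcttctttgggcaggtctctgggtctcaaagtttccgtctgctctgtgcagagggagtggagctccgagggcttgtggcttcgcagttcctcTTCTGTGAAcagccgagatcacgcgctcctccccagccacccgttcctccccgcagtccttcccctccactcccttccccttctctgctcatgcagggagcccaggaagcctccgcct
TREM1: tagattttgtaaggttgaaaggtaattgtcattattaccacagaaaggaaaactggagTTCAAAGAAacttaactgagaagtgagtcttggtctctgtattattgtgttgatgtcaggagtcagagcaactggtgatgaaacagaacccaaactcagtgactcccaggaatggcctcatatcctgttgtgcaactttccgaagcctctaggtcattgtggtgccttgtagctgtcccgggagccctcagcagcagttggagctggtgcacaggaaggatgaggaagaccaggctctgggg

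The TTCNNNGAA motif, which reads the same on both strands, was present in 7 of the 43 receptor promoters (CLEC18A, CLEC18B, CLEC1B, CLEC3B, SIGLEC12, SIGLEC6 and TREM1; 16.3%) and in 7.66% of all 35114 promoters of this length. The core of the interferon-stimulated response element (GAAA, any 2 bases, GAAA), searched on both strands, was present in 0 of the 43 and in 3.57% of all promoters. The PU.1 motif GAGGAAGT, on either strand, was present in CLEC4C alone and in 2.59% of all promoters. No receptor promoter held more than 1 of these motifs. The CLEC18A and CLEC18B windows are nearly identical in sequence and hold the same match, so they are not separate cases. Of the 7 genes with TTCNNNGAA, only SIGLEC12, SIGLEC6 and TREM1 were tested in either line, so the match describes the letters of these windows and nothing more.

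Among the inhibitory Siglecs, SIGLEC6 was the DEG with the largest rise in Molm13, whereas its groups overlapped in THP1. SIGLEC6 (chr19:51519525-51531856), also a leptin-binding protein of placenta, had 21 and 29 counts in Molm13 shCtrl and 94 and 118 in shPRMT9, and rose by 2.08 ± 0.213 on the log2 scale (FDR 1.1e-11). In THP1 it had 16 and 34 counts with shCtrl and 29 and 24 with shPRMT9 (0.18 ± 0.342, FDR 0.72). CD33 (chr19:51225064-51243860), the target of antibody therapy in AML, had 1220 and 1168 counts in Molm13 shCtrl and 1660 and 1885 in shPRMT9. It rose by 0.57 ± 0.0435 (FDR 1.5e-15), which is 1.48-fold and just under the fold limit for a DEG. In THP1 CD33 went from 1793 and 1813 counts to 1855 and 1896 (0.15 ± 0.0481, FDR 0.014).

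SIGLEC12, whose human form has lost the key sialic acid contact, had 0 and 2 counts in Molm13 shCtrl, 8 and 11 in Molm13 shPRMT9, 69 and 56 in THP1 shCtrl and 95 and 80 in THP1 shPRMT9. It rose in THP1 by 0.58 ± 0.194 (FDR 0.019) and was too low to test in Molm13. SIGLEC10 rose by 0.70 ± 0.243 in Molm13 (FDR 0.010), with an RPKM below 1 in every library, and had a log2 fold change of 0.45 ± 0.222 in THP1 (FDR 0.11). SIGLEC7, SIGLEC8 and SIGLEC5 had at most 8 counts in any library. Of the 9 inhibitory Siglecs, 3 of 4 tested rose in Molm13 (33.4% of all genes) and 2 of 5 in THP1 (19%) with the FDR alone. None fell in either line, against 33.5% and 18.6% of all genes.

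SIGLEC1 (chr20:3686970-3707128), a Siglec without an inhibitory motif, had the largest rise of the receptors in both lines. In THP1 its counts went from 616 and 610 to 5133 and 5847, 9.56-fold or 3.26 ± 0.0608 on the log2 scale (FDR 1.7e-25). In Molm13 they went from 3 and 8 to 60 and 76 (3.60 ± 0.343, FDR 1.5e-12), and the RPKM of 0.43 kept it from being called a DEG there. It passed the Molm13 filter through the shPRMT9 libraries alone, so its rise and rank in that line are given as a description. SIGLEC1 thus reached a mean of 27.9 RPKM in THP1 shPRMT9, close to the level of LILRB4 and LAIR1 in that line. No 50-base word of SIGLEC1 transcripts recurs in another gene. SIGLEC15, known from osteoclasts, had 5 and 0 counts in Molm13 shCtrl and 20 and 17 in shPRMT9 (2.83 ± 0.594, FDR 5.4e-05), and passed the filter through the shPRMT9 libraries alone.

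**Figure D3:**
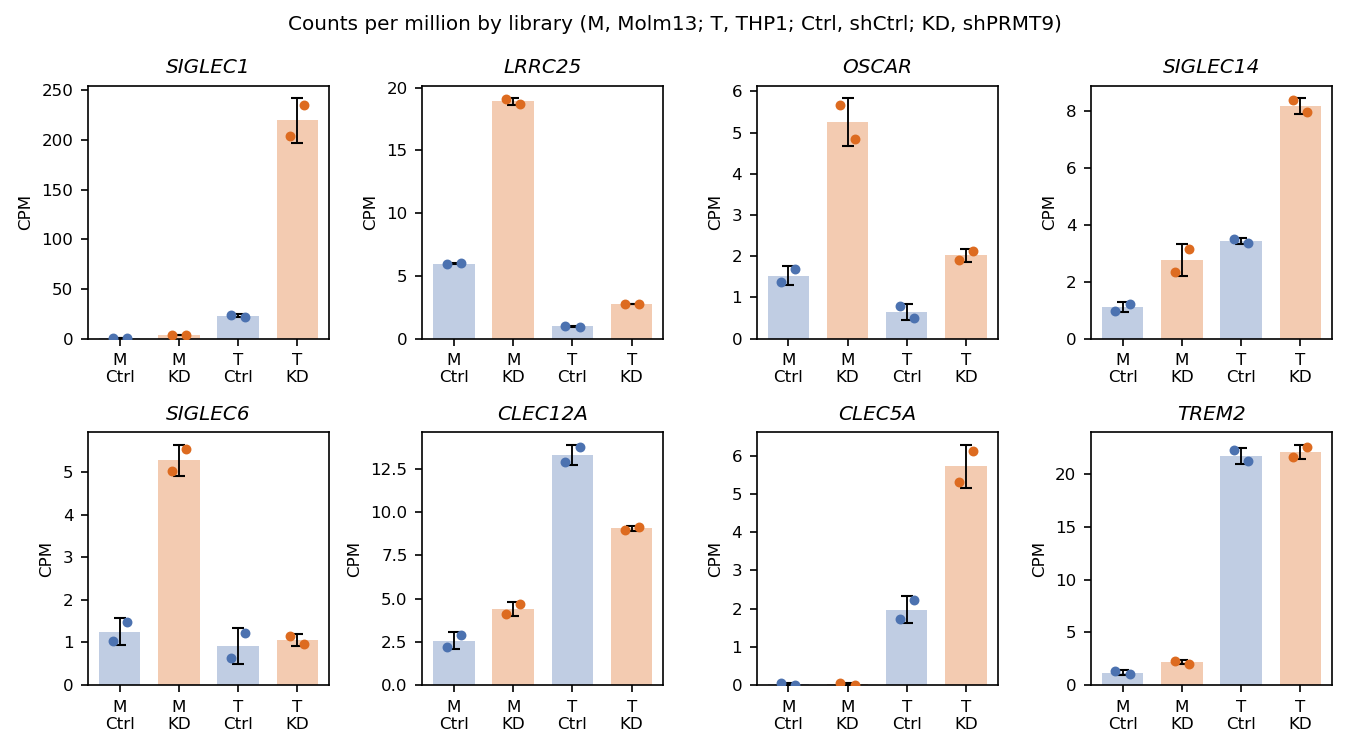
CPM of SIGLEC1, LRRC25, OSCAR, SIGLEC14, SIGLEC6, CLEC12A, CLEC5A and TREM2 in Molm13 (M) and THP1 (T) with shCtrl (Ctrl) or shPRMT9 (KD); points are libraries, bars means and error bars SD (n = 2), and each panel has its own axis from 0. SIGLEC1 rises to a mean of 220 CPM in THP1 shPRMT9, LRRC25, OSCAR and SIGLEC14 rise in both lines, and CLEC12A rises in Molm13 and falls in THP1.

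Of the 10 LILR genes, 6 were tested in Molm13, LILRA5 through the shPRMT9 libraries alone. With the FDR alone, all 3 tested LILRA genes and all 3 tested LILRB genes rose there, against 33.4% of all genes. In THP1, 0 of 3 LILRA and 2 of 4 LILRB genes rose, against 19%. None fell in either line, against 33.5% and 18.6% of all genes. LILRA2 (chr19:54572920-54590287), an activating receptor for cleaved antibodies, had 617 and 634 counts in Molm13 shCtrl and 885 and 1008 in shPRMT9 (0.60 ± 0.0579, FDR 2.3e-12). It was a DEG by a narrow margin, at 1.51-fold, and was not called without shCtrl replicate 1. In THP1 it stayed at 1203 and 1226 counts with shCtrl and 1108 and 1119 with shPRMT9 (-0.03 ± 0.0555, FDR 0.71). LILRA1, which overlaps LILRA2 on the same strand, rose by 0.41 ± 0.104 in Molm13 (FDR 5.9e-04). LILRA5 went from 10 and 6 counts to 29 and 32 in Molm13 (1.92 ± 0.378, FDR 2.1e-05), again through the shPRMT9 libraries alone.

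LILRB1 (chr19:54617158-54637528), the inhibitory MHC class I receptor, rose from 77 and 92 counts to 145 and 140 in Molm13 (0.75 ± 0.15, FDR 2.4e-05) and from 156 and 156 to 227 and 206 in THP1 (0.57 ± 0.119, FDR 3.5e-04, 1.48-fold and no DEG). LILRB4 (chr19:54643889-54670359), the most abundant LILR, had 1798 and 1696 counts in Molm13 shCtrl and 2285 and 2483 in shPRMT9 (0.45 ± 0.0387, FDR 6.5e-14). In THP1 it had 4488 and 4766 counts with shCtrl and 4701 and 4592 with shPRMT9 (0.10 ± 0.0349, FDR 0.024), and only the CPM values were apart. LILR genes resemble one another: 18.1% of the 50-base words of LILRA2, 17.6% of LILRB1 and 14.2% of LILRB4 recur in other genes, so part of their reads could have been left out or assigned to a relative.

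Among the C-type lectins, with the FDR alone, 5 of 6 tested rose (33.4% of all genes) and 1 fell (33.5%) in Molm13. In THP1, 2 of 9 rose, near the 19% of all genes, and 3 fell (18.6%). CLEC2B, 1 of the 5, passed the Molm13 filter through the shPRMT9 libraries alone. CLEC12A (chr12:9951316-9995694) moved in opposite directions, from 45 and 57 counts to 77 and 100 in Molm13 (0.79 ± 0.189, FDR 2.9e-04) and from 331 and 382 to 226 and 227 in THP1 (-0.56 ± 0.0966, FDR 3.1e-05). The fall in THP1 was 0.679-fold and just short of the fold limit. CLEC1B overlaps it on the other strand and had at most 2 counts. CLEC11A (chr19:50723329-50725718) also moved in opposite directions, by small amounts, from 4712 and 4269 counts to 5262 and 5824 in Molm13 (0.31 ± 0.0294, FDR 1.8e-12) and from 11972 and 12085 to 10202 and 10403 in THP1 (-0.13 ± 0.0337, FDR 0.0027).

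CLEC16A (chr16:10944488-11182189), an intracellular regulator of mitophagy that carries the family name without being a surface lectin, was the only receptor symbol that fell in both lines. Its counts went from 811 and 789 to 432 and 459 in Molm13 (-0.84 ± 0.0648, FDR 1.8e-15) and from 1415 and 1456 to 1200 and 1159 in THP1 (-0.19 ± 0.0530, FDR 0.0053). CLEC2D (chr12:9664969-9699555) rose from 279 and 239 counts to 433 and 493 in Molm13 (0.84 ± 0.0818, FDR 2.8e-12) and had 106 and 108 counts in THP1 shCtrl and 83 and 84 in shPRMT9 (-0.26 ± 0.163, FDR 0.22). CLEC10A (chr17:7074537-7080307) rose from 26 and 21 counts to 56 and 60 in Molm13 (1.30 ± 0.248, FDR 1.2e-05). In THP1 it had 4 and 12 counts with shCtrl and 12 and 23 with shPRMT9 (1.21 ± 0.501, FDR 0.058).

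CLEC5A (chr7:141927357-141947007), a DAP12-coupled receptor of monocytes, rose in THP1 from 44 and 62 counts to 134 and 152 (1.53 ± 0.176, FDR 5.4e-08) and had at most 1 count in each Molm13 library. MGAM lies over it on the other strand, and reads of the pair cannot be told apart unless strand was used in counting. CLEC7A, the beta-glucan receptor dectin-1, rose in THP1 from 12 and 30 counts to 74 and 57 (1.73 ± 0.293, FDR 2.2e-05) with an RPKM below 1, and had 2 to 5 counts in Molm13. CLEC2B, a ligand of the NK-cell receptor NKp80, had 9 and 8 counts in Molm13 shCtrl and 41 and 53 in shPRMT9 (2.45 ± 0.337, FDR 2.1e-08). It passed the filter there through the shPRMT9 libraries alone.

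The activating TREM receptors were TREM1 and TREM2. TREM2 (chr6:41158506-41163186) rose in Molm13 from 27 and 20 counts to 43 and 43 (0.87 ± 0.271, FDR 0.0045). That call was lost without Molm13 shCtrl replicate 2 or shPRMT9 replicate 1. In THP1, where its shCtrl level was 18.4-fold higher, TREM2 had 570 and 589 counts with shCtrl and 544 and 561 with shPRMT9 (0.03 ± 0.0726, FDR 0.82). TREM1, an amplifier of inflammation in monocytes and neutrophils, rose in THP1 from 15 and 25 counts to 55 and 65 (1.68 ± 0.279, FDR 1.8e-05) with an RPKM below 1, and had 4 and 3 counts in Molm13 shCtrl and 7 and 8 in shPRMT9, too few to test in that line alone. The difference of its effects between the lines was 0.61 ± 0.793 (FDR 0.60).

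LAIR1 (chr19:54351384-54370558) rose in both lines by less than 1.5-fold, from 7698 and 7512 counts to 10546 and 11889 in Molm13 (0.56 ± 0.0247, FDR 8.6e-24) and from 4597 and 4824 to 5516 and 5641 in THP1 (0.34 ± 0.0353, FDR 8.3e-09). SIRPA (chr20:1894167-1940592) moved in opposite directions. It had 4059 and 3905 counts in Molm13 shCtrl and 3447 and 3884 in shPRMT9, a small fall that shows in CPM (199 ± 0.558 to 183 ± 1.26, SD, n = 2; log2 -0.12 ± 0.0301, FDR 5.7e-04). In THP1 it rose from 2292 and 2333 counts to 2812 and 2909 (0.40 ± 0.0436, FDR 1.8e-08).

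PILRA (chr7:100367530-100400099), an inhibitory receptor for sialylated proteins, had 21 and 28 counts in Molm13 shCtrl and 40 and 37 in shPRMT9 (0.65 ± 0.280, FDR 0.038), and 13 and 20 in THP1 shCtrl and 34 and 30 in shPRMT9 (1.05 ± 0.338, FDR 0.015, RPKM below 1). The Molm13 call was lost without shCtrl replicate 1 or shPRMT9 replicate 1 and with the replicate number as a block. PILRB, its activating counterpart, which overlaps PILRA and shares 46.6% of its 50-base words with other genes, fell in Molm13 from 135 and 114 counts to 92 and 101 (-0.37 ± 0.146, FDR 0.026) and had 196 and 244 counts in THP1 shCtrl and 198 and 231 in shPRMT9 (0.06 ± 0.117, FDR 0.74).

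Whether the effect of shPRMT9 on a receptor differed between the lines was tested as the effect in THP1 minus that in Molm13, in a fit of all 8 libraries. Of the 36 receptors tested, 9 differed at an FDR below 0.05 and more than 1.5-fold, against 20.9% of all 19288 genes, so the share of 25% lies near the background. The effect was lower in THP1 for 7, against 11.1% of all genes, and higher for 2, against 9.72%. CLEC2B, 1 of the 7, passed the filter on low counts through the Molm13 shPRMT9 libraries alone. That selection favors a lower effect in THP1, so its value and the counts by direction are a description. At the FDR alone, 15 differed (42.2% of all genes), 12 of them lower (19.4%) and 3 higher (22.8%) in THP1. CLEC12A (-1.34 ± 0.209, FDR 4.4e-08), SIGLEC6 (-1.89 ± 0.402, FDR 4.3e-05), CLEC2D (-1.09 ± 0.179, FDR 1.8e-07), LILRA2 (-0.62 ± 0.0826, FDR 4.7e-10) and TREM2 (-0.83 ± 0.267, FDR 0.0073) had the lower effect in THP1. CLEC16A fell less in THP1, with a difference of 0.67 ± 0.0861 (FDR 1.2e-10).

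SIGLEC12 (-2.52 ± 0.878, FDR 0.014), CLEC2B (-2.49 ± 0.857, FDR 0.013) and CLEC7A (2.40 ± 0.912, FDR 0.026) completed the 9, and each of these 3 had 9 or fewer counts in at least 1 whole group. TREM2 was not called without Molm13 shCtrl replicate 2, CLEC16A without Molm13 shPRMT9 replicate 2, SIGLEC12 without Molm13 shCtrl replicate 1 or with DESeq2, and CLEC2B without replicate 2 of either THP1 group. CLEC7A was not called without Molm13 shCtrl replicate 1, either Molm13 shPRMT9 library, THP1 shCtrl replicate 1 or THP1 shPRMT9 replicate 1. The 3 DEGs of both lines and SIGLEC1 gave no detectable difference: SIGLEC1 -0.33 ± 0.431 (FDR 0.60), LRRC25 -0.16 ± 0.274 (FDR 0.70), OSCAR -0.11 ± 0.404 (FDR 0.92) and SIGLEC14 -0.06 ± 0.292 (FDR 0.95). These errors leave room for unequal effects. CD33 (-0.41 ± 0.0651, FDR 9.0e-08), LAIR1 (-0.21 ± 0.0420, FDR 1.4e-05) and LILRB4 (-0.34 ± 0.0521, FDR 3.6e-08) rose in both lines with the FDR alone, and less in THP1.

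**Figure D4:**
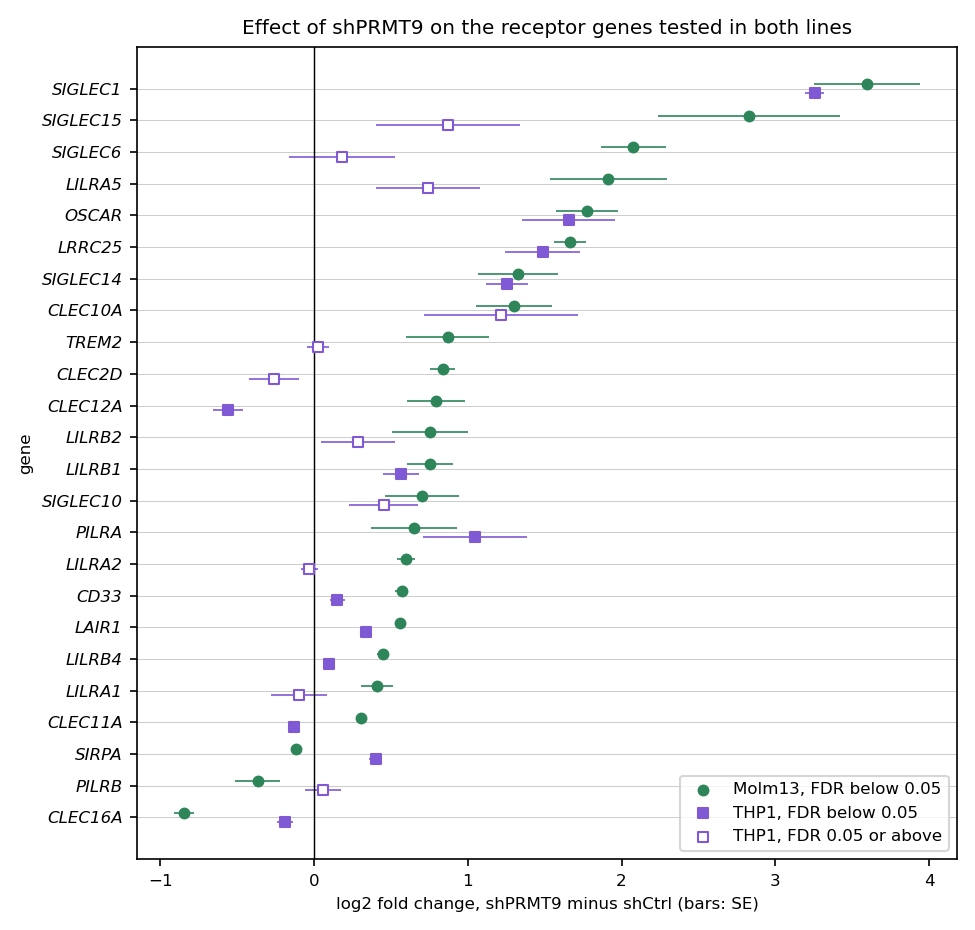
Log2 fold change of shPRMT9 against shCtrl with its SE for the 24 receptor genes tested in both lines, Molm13 as circles and THP1 as squares, filled where the FDR was below 0.05. SIGLEC1, OSCAR, LRRC25 and SIGLEC14 lie to the right of 0 in both lines, CLEC12A, CLEC11A and SIRPA lie on opposite sides, and CLEC16A lies to the left in both.

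Of the 24 receptors tested in both lines, 13 passed the FDR in both. 9 rose in both, 1 (CLEC16A) fell in both, and 3 (CLEC11A, CLEC12A and SIRPA) moved in opposite directions. SIGLEC1, 1 of the 9, passed the Molm13 filter through the shPRMT9 libraries alone. The share of all genes that passed in both lines was not computed, so these counts are a description.

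Many of these genes lie next to one another. The leukocyte receptor region chr19:54094668-54670359 holds 12 of them, from OSCAR through the LILR genes and LAIR1 to LILRB4. All 8 tested in Molm13 rose with the FDR alone, against 33.4% of all genes. In THP1, 4 of the 9 tested rose, against 19%, and none fell, against 18.6%. LILRA5 is counted among the 8, although it passed the Molm13 filter through the shPRMT9 libraries alone. The Siglec region chr19:49948985-51646801 also holds 12, CLEC11A included. There, 5 of 6 tested genes rose in Molm13 (33.4% of all genes), and in THP1 3 of 7 rose (19%) and 1 (CLEC11A) fell (18.6%). In the lectin region chr12:9664969-10130258 with 9 genes, the 3 tested in Molm13 (CLEC2D, CLEC2B and CLEC12A) rose (33.4% of all genes). CLEC2B passed the filter there through the shPRMT9 libraries alone. Of the 4 tested in THP1, 1 (CLEC7A) rose (19% of all genes) and 1 (CLEC12A) fell (18.6%).

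Most genes of the activating side rose in both lines with the FDR alone, with fewer DEGs in THP1. Of 12 genes of this side (adaptors, kinases and their targets), 9 rose in Molm13 with the FDR alone (33.4% of all genes), 7 of them DEGs (11.4%), and 8 rose in THP1 (19%), 3 of them DEGs (3.83%). None fell at this FDR in either line, against 33.5% and 18.6% of all genes. TYROBP, which encodes DAP12, had 346 and 292 counts in Molm13 shCtrl and 746 and 788 in shPRMT9 (1.27 ± 0.0729), and 545 and 544 in THP1 shCtrl and 927 and 967 in shPRMT9 (0.89 ± 0.0677). FCER1G, the Fc receptor gamma chain, rose by 1.98 ± 0.235 and 1.05 ± 0.0560. HCST, which encodes the adaptor DAP10, rose in Molm13 from 243 and 249 counts to 541 and 573 (1.18 ± 0.0796), whereas in THP1 it had 74 and 79 counts with shCtrl and 56 and 66 with shPRMT9 (-0.23 ± 0.195, FDR 0.39). SYK had log2 fold changes of -0.05 and -0.06, with an FDR of 0.15 and 0.13.

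Of 6 genes of the inhibitory side, 4 rose (33.4% of all genes) and 2 fell (33.5%) in Molm13 with the FDR alone. There, 3 were DEGs that rose (11.4% of all genes). In THP1, 3 rose (19%) and 2 fell (18.6%). SOCS3, a feedback inhibitor of cytokine signaling, was the only DEG in THP1 and rose (0.66 ± 0.209), against 3.83% of all genes. In Molm13 the phosphatase genes INPP5D (SHIP1) and PTPN6 (SHP-1) rose by 0.98 ± 0.0251 and 0.61 ± 0.0275, and PTPN11 (SHP-2) had a log2 fold change of -0.50 ± 0.0269. Of 25 genes for ligands and sialic acid synthesis, 12 of 21 tested rose and 2 fell in Molm13 with the FDR alone, against 33.4% and 33.5% of all genes. In THP1, 9 of 22 rose and 5 fell, against 19% and 18.6%. ST6GALNAC2 and ST8SIA6, among the 12, passed the Molm13 filter through the shPRMT9 libraries alone, so these counts are a description. DEGs in this list numbered 4 in Molm13 and 2 in THP1, and all of them rose, against 11.4% and 3.83% of all genes. VIM, which encodes vimentin, went from 16318 and 15751 counts to 37676 and 42022 in Molm13 (1.31 ± 0.0217) and from 10285 and 10543 to 23756 and 23473 in THP1 (1.27 ± 0.0310). GNE, the entry enzyme of sialic acid synthesis, rose in Molm13 (1.23 ± 0.116) and had a log2 fold change of -0.03 ± 0.0655 in THP1. CD47, the ligand of SIRPA, rose by 0.15 ± 0.0330 and 0.38 ± 0.0426 and was a DEG in neither line.

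Of 28 related receptors outside the rule, 13 of 16 tested rose and 1 fell in Molm13 with the FDR alone, against 33.4% and 33.5% of all genes. There were 6 DEGs that rose (11.4% of all genes). In THP1, 4 of 17 tested rose, near the 19% of all genes, and 6 fell, against 18.6%. There, 2 DEGs rose (3.83% of all genes) and 3 fell (2.39%). CD69, among the 13, passed the Molm13 filter through the shPRMT9 libraries alone. CD300LB, among the 6 that fell, passed the THP1 filter through the shCtrl libraries alone. These counts are a description. CD209 (DC-SIGN) rose in both lines, from 213 and 184 counts to 361 and 383 in Molm13 and from 454 and 477 to 1586 and 1537 in THP1 (0.91 ± 0.0919 and 1.84 ± 0.0611). CD300A, another ITIM receptor, rose in Molm13 from 439 and 378 counts to 1267 and 1474 (1.75 ± 0.0593) and fell in THP1 from 86 and 75 to 45 and 41 (-0.81 ± 0.214).

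The summed level of 12 genes listed as a check of the monocytic lines was higher with shPRMT9 in both lines. The list includes HOXA9 and MEIS1, which are not markers of monocytes, and MPO, so its sum and counts do not measure monocytic identity alone. All 12 genes listed had counts in both lines, although CD14 had only 4 to 8 counts per library in Molm13 and MEIS1 only 4 to 9 in THP1. Their summed level went from 1489 to 1496 CPM in Molm13 shCtrl to 2232 and 2233 in shPRMT9, and in THP1 from 2654 to 2698 CPM with shCtrl to 3958 to 4114 with shPRMT9. Most of the sum in THP1 and much of that in Molm13 was LYZ, the lysozyme gene, with 633 and 635 CPM in Molm13 shCtrl, 996 and 1011 in Molm13 shPRMT9, 1892 and 1880 in THP1 shCtrl and 3156 and 3007 in THP1 shPRMT9. With the FDR alone, 9 of 11 tested rose (33.4% of all genes), HOXA9 and MEIS1 among them, and 2 fell (33.5%) in Molm13. In THP1, 7 of 11 rose (19%) and 2 fell (18.6%). CSF1R, the M-CSF receptor, rose by 2.06 ± 0.0640 and 1.03 ± 0.0415, and ITGAM (CD11b) by 1.95 ± 0.0478 and 1.15 ± 0.0608. MPO, the myeloperoxidase of granulocyte and monocyte precursors, fell in both lines (-0.56 ± 0.0512 and -0.82 ± 0.138) and was the only DEG of the list that fell in THP1. FCGR1A fell in Molm13 (-0.44 ± 0.108) and had a log2 fold change of -0.01 ± 0.112 in THP1. Their part in the receptor values was not tested.

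Markers of other cell types were low or carried by single genes. Of 6 B-cell markers, MS4A1 had at most 1 count, and PAX5 gave most of the sum, which went from 4.30 and 4.79 CPM in THP1 shCtrl to 12.7 and 14.3 in shPRMT9 and from 42.7 and 42.9 to 41 and 39.7 in Molm13. Of 8 T- and NK-cell markers, CD3D, CD3E and CD2 had at most 3 counts, and NCAM1 gave most of a sum that went from 183 and 188 CPM in THP1 shCtrl to 168 and 168 in shPRMT9 and from 218 and 219 to 225 and 227 in Molm13. Of 6 plasmacytoid dendritic cell markers, CLEC4C, JCHAIN and GZMB had at most 2 counts, IL3RA had 0 counts in Molm13, and LAMP5 gave most of a sum that went from 208 and 208 CPM to 214 and 217 in Molm13, and in THP1 from 106 to 107 CPM with shCtrl to 76.8 to 80.1 with shPRMT9. Each of 5 erythroid markers had at most 6 counts. The part of these genes in the receptor values was not tested.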

How the data were processed

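Bulk RNA-seq of polyA RNA covered shCtrl and shPRMT9 cells of the Molm13 and THP1 lines, with 2 libraries per group. The authors deposited raw read counts per gene, unnormalized whole numbers, with 1 table per line. The table for Molm13 adds symbols, coordinates and exon lengths. The submitters' processing notes name TopHat2 2.0.8, HTSeq 0.11.2, edgeR 3.30.3 and hg38. The annotation release and the strand setting of the counting are not given in the sources used here. All 61 gene identifiers were found in GENCODE release 29, 60 with the same start and end.

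Everything from the counts onward was computed in R 4.3.3 with edgeR 4.0.16. Each line was fitted on its own over all genes kept by filterByExpr, with TMM normalization (factors 0.989 to 1.02), the quasi-likelihood test of shPRMT9 against shCtrl, no replicate block and Benjamini-Hochberg adjustment over all genes tested. DEGs followed the thresholds of the study's methods. A fit of all 8 libraries over 19288 genes tested the difference of the effects and of the shCtrl levels. SE was taken as the size of the log2 fold change over the root of its F value, and CPM and RPKM were computed within each line. Libraries of a group differed by more than sampling noise (chi-square per gene 1.35 to 2.17). The filter required about 0.499 CPM in Molm13 and 0.392 CPM in THP1.

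Genes named are DEGs in either line, genes with opposite effects, the 5 highest by RPKM in shCtrl per line and the largest rise and fall per line; other genes are examples of their group. A gene of the lists is not reported here. The members and gene lists were chosen with earlier results of these data known. Words of 50 bases were compared between GENCODE 29 transcripts. Alternatives were DESeq2 1.42.0, limma 3.58.1, other scalings, filters, limits and a replicate block, and leaving out each library.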

Additional observations from a re-analysis of the deposited data

Results flagged for a closer look

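The effect of shPRMT9 differed between THP1 and Molm13 at an FDR below 0.05 (edgeR's quasi-likelihood test of the interaction) for 15 of the 36 receptor genes tested, against 42.2% of all genes. Values are the log2 effect in THP1 minus that in Molm13. The effect was lower in THP1 for 12 of them, of which CLEC2B passed the filter on low counts through the Molm13 shPRMT9 libraries alone. These were SIGLEC12 (-2.52), CLEC2B (-2.49), SIGLEC6 (-1.89), CLEC12A (-1.34), CLEC2D (-1.09), TREM2 (-0.83), LILRA2 (-0.62), LILRA1 (-0.50), CLEC11A (-0.42), CD33 (-0.41), LILRB4 (-0.34) and LAIR1 (-0.21). The effect was higher in THP1 for CLEC7A (2.40), CLEC16A (0.67) and SIRPA (0.53). CD33, LAIR1 and LILRB4 rose in both lines, and less in THP1. CLEC11A and SIRPA were among the most abundant receptors, and their differences were under 1.5-fold. No group held more than 2 libraries, so single libraries that stand apart were not looked for within groups.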

How the results depend on the processing

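The number of DEGs that rose in Molm13 (11) was 7 with DESeq2, 22 with the FDR alone, 17 without the RPKM minimum and 5 with a fold change above 2; PILRA, TREM2, CLEC12A and LILRA2 were the calls lost with DESeq2. The number that fell there (1, CLEC16A) was 3 with the FDR alone and 0 with a fold change above 2. In THP1 the number that rose (5) was 14 with the FDR alone and 8 without the RPKM minimum. The number that fell in THP1 (0) was 3 with the FDR alone and 1 (CLEC12A) with scaling by library size only and also without shCtrl replicate 1. The 9 receptors whose effects differed between the lines became 15 with the FDR alone. With single libraries left out, these counts ranged from 9 to 11 (higher in Molm13), 1 to 1 (lower in Molm13), 5 to 7 (higher in THP1), 0 to 1 (lower in THP1), 7 to 10 (differing effect) and 21 to 25 (differing shCtrl level, 23 with all libraries); where a group then held 1 library, it was assumed to vary like the others.

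The 13 values that changed sign had an FDR far above 0.05 in both settings. With single libraries left out, the log2 fold change in THP1 ranged from -0.0790 to 0.0106 for LILRA2, from -0.209 to 0.755 for SIGLEC6 and from -0.0125 to 0.0583 for TREM2, which was -0.00154 by library size only. The log2 difference between the lines ranged from -0.663 to 0.809 for CLEC10A, from -1.0 to 4.02 for CLEC5A, from -0.426 to 0.188 for OSCAR, from -1.25 to 0.20 for SIGLEC1 and from -0.282 to 0.136 for SIGLEC14. The causes were not tested. Of all values for single genes, these 13 included, 256 of 275 in Molm13, 213 of 241 in THP1, 274 of 299 for the difference of effects and 365 of 377 for the shCtrl levels kept their direction and their side of the threshold.

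The groups share the numbers 1 and 2, but nothing ties same-numbered libraries to each other, and with 2 pairs their deviations correlated at -0.087 in Molm13 and -0.015 in THP1 (over genes). With the replicate number as a block, the receptor counts were 10, 1, 5, 0, 9 and 23, and the counts over all genes went from 3744 to 3711 in Molm13, from 1013 to 1019 in THP1, from 4024 to 3967 for the difference of effects and from 11471 to 11416 for the shCtrl levels. Depth limits the receptors with few counts: 27 of the 61 could not be tested in either line.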
